A study of Homo sapiens with 6 samples.

Results

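The genes described here are the partners of the BCR-ABL1 fusion and the core of its downstream signalling. They are 10 genes chosen by name: BCR and ABL1, the adaptors CRKL, GRB2 and GAB2, the transcription factors STAT5A and STAT5B, and the STAT5-linked genes PIM1, SOCS2 and MYC. A locus of the deposited table was taken where one of its gene names was one of these symbols. All 10 were found, each in 1 of the 62828 loci, and each was among the 12838 loci averaging at least 1 FPKM (fragments per kilobase, relative to library size) over the 6 libraries. The GRB2 locus also carries the name AC011933.1, so its fragments cannot be given to GRB2 alone.

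K562, an established line from the bone marrow of a chronic myelogenous leukemia, was given either control oligos or 300 nM siRNA against HNRNPU, a nuclear RNA-binding protein. RNA was taken from whole cells, from nuclei and from the cytosol under each condition, which gives 6 groups of 1 library: control whole-cell, knockdown whole-cell, control nuclear, knockdown nuclear, control cytosolic and knockdown cytosolic. All 6 share the fusion that the line carries, and they are a single line with no fusion-negative cells beside them. With 1 library a group no test can be made within a preparation, so the differences given are between single libraries, without a replicate check.

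BCR-ABL1 arises when a translocation between chromosomes 9 and 22 joins the 5′ part of BCR to the kinase exons of ABL1. The fused protein is a tyrosine kinase that is always active: GRB2 binds its BCR portion and brings in GAB2 and the RAS and PI3K pathways, CRKL is one of its main substrates, and STAT5 is phosphorylated and turns on survival and feedback genes such as PIM1, BCL2L1, CISH and SOCS2. The fusion transcript starts at the BCR promoter and ends with the ABL1 exons, so a value for a whole locus holds fragments of intact and fused transcripts together, and these values cannot separate them.

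HNRNPU itself stood at 43.0% of its control FPKM in knockdown whole-cell RNA, 39.0% in nuclear RNA and 22.1% in cytosolic RNA. Depth differed by library, from an estimated 13.4 fragments per FPKM and kilobase (control cytosol) to 39.1 (knockdown nucleus). All 10 markers of the erythroid and megakaryocytic K562 line were at or above 1 FPKM in every library. Of the markers of other cell types, CD3D of T cells, LYZ of monocytes, EPCAM of epithelium and COL1A2 of fibroblasts were at or above 1 FPKM in every library. Others of the same lists, CD3G, TRAC, CD14, CSF1R, CDH1, KRT5 and COL3A1, were below 1 FPKM in every library, and CD3E and COL1A1 in some. The B cell markers were below it in every library, and the B cell marker MS4A1 and the epithelial marker KRT5 were listed at 0. The summed level of the T cell list ran from 12.5 to 19.4 FPKM, that of the monocyte list from 1.88 to 3.64 FPKM, that of the epithelial list from 10.8 to 24.0 FPKM and that of the fibroblast list from 5.09 to 19.6 FPKM. In such bulk values fewer cells of a type and less RNA per cell cannot be told apart, and the part of the marker levels in the results was not tested. The nuclear markers MALAT1, NEAT1 and KCNQ1OT1 summed to 2052 FPKM (control) and 2411.5 (knockdown) in nuclei, and to 154 and 119 in the cytosol. MALAT1 went from 1984 to 2352 FPKM in nuclei, and NEAT1 from 67.2 to 59.4. The 5 cytosolic markers, such as GAPDH, summed to 5501 and 6050 FPKM in nuclei, and to 29681.5 and 27924 in the cytosol. The purity of the fractions, and its part in nuclear-to-cytosolic differences, was not tested.

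The promoters of BCR and ABL1 are shown because the fusion transcript starts at the first and not at the second. Each is the RefSeq window on GRCh38.p14 from 250 bases before to 50 after the annotated start, 5′ to 3′ on the gene's strand, with the GC box letters GGGCGG or their reverse complement CCGCCC in capitals. The BCR window is chr22:23180259-23180558 and the ABL1 window chr9:130835004-130835303, both on the plus strand. Each gene had only 1 such window, so any other start of either gene is not shown. The windows were not placed within the hg19 loci.
BCR: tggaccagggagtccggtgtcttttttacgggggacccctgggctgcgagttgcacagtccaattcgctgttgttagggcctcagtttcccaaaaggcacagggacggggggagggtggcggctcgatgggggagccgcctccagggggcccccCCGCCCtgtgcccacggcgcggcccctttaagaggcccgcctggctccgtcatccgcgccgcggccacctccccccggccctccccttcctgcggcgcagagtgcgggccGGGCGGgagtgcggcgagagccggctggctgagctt
ABL1: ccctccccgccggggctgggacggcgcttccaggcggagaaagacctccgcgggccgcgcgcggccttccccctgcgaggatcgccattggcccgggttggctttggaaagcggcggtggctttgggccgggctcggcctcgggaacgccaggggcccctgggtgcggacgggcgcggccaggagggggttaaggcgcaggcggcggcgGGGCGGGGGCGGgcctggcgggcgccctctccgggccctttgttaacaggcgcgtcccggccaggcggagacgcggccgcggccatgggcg
Both windows are rich in G and C, at 71.7% and 78.3% of their bases. Each holds 2 GC boxes, a sequence that 45.0% of the 35116 promoter windows in the table hold on either strand. Neither holds TATAAA, which 11.5% of all windows do, and each holds 1 CCAAT, which 34.6% do. These are matches of letters and not measured sites.

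The RNAs of both fusion partners were abundant in every library and differed little between knockdown and control. BCR (chromosome 22, 23521890 to 23660224 on hg19, the build of all locus coordinates here) stood at 41.9 FPKM in the control and 43.4 after knockdown in whole cells, at 56.2 and 50.04 in the nucleus, and at 50.5 and 48.9 in the cytosol. ABL1 (chromosome 9, 133589332 to 133763062) stood at 31.1 and 33.1 FPKM in whole cells, at 44.2 and 46.9 in the nucleus, and at 45.8 and 48.6 in the cytosol. The control nuclear library was the highest of the 6 for BCR, whereas for ABL1 each knockdown library was slightly above its control.

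Ratios were taken as differences of log2(FPKM + 0.1), and each has a standard error (SE) from the estimated number of fragments, which covers counting error only. The log2 ratio of knockdown to control for BCR was 0.05 (counting SE 0.06) in whole cells, -0.17 (SE 0.04) in nuclei and -0.05 (SE 0.06) in the cytosol. For ABL1 it was 0.09 (SE 0.04), 0.08 (SE 0.03) and 0.08 (SE 0.04). The nuclear value of BCR and the whole-cell and nuclear values of ABL1 lay outside the 95% range of counting error, and the other 3 did not. The small whole-cell value of BCR changed sign under each of the 3 other scalings of the libraries tried. The values of ABL1 in the 3 preparations kept theirs but depended on the scaling. They fell to as low as 0.01 in whole cells, 0.05 in nuclei and 0.04 in the cytosol, each within the range of counting error.

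The level of BCR over that of ABL1, both per length, was 1.35 in the control and 1.31 after knockdown in whole cells. In nuclei it was 1.27 and 1.07, and in the cytosol 1.10 and 1.01. BCR was above ABL1 beyond counting error in 5 libraries, and in the knockdown cytosolic library the difference was within it, at 0.01 on the log2 scale (SE 0.05).

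Both partners lay on the nuclear side among the 10. In the control, the log2 nuclear-to-cytosolic ratio of FPKM was 0.15 for BCR and -0.05 for ABL1. The median of the 10304 protein-coding loci was -0.61, so these are read against that median and not against 0. The BCR ratio was above that of 78.0% of protein-coding loci and the ABL1 ratio above that of 71.5%. After knockdown the ratios were 0.03 and -0.05. The localization shift, which is the log2 nuclear-to-cytosolic ratio after knockdown minus that in the control, was -0.12 (counting SE 0.08) for BCR and 0.00 (SE 0.06) for ABL1, both within the range of counting error.

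**Figure D1:**
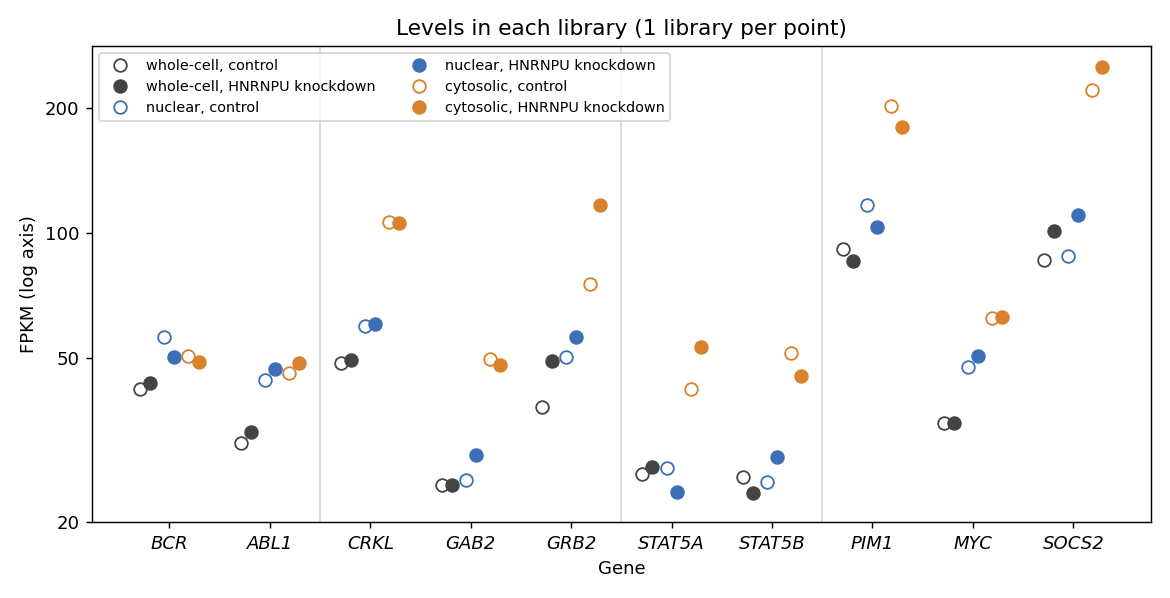
FPKM of each of the 10 genes in the 6 libraries, on a log axis, with 1 point per library, open or filled by condition and coloured by preparation. PIM1 and SOCS2 stand above the other 8 in every library, and most of the 10 have their highest points in cytosolic RNA.

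Few neighbours of the 2 partners reached their levels. Of 80 loci within 500 kb of BCR, 7 had a mean of at least 1 FPKM. The pseudogene locus FBXW4P1, which lies inside BCR, had a mean of 3.03 FPKM, and the nearest 3 beyond the 3′ end were the merged GUSBP11 locus at 4.73, RGL4 at 1.28 and LL22NC03-N27C7.1 at 2.499 FPKM. None on the 5′ side, where immunoglobulin lambda segments lie, reached the minimum. Further along, CHCHD10, which codes for a mitochondrial protein, had a mean of 126 FPKM and the chromatin remodeller subunit SMARCB1 15.6 FPKM.

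Around ABL1, 7 of 25 loci had a mean of at least 1 FPKM. EXOSC2, a subunit of the RNA exosome, had a mean of 13.4 FPKM, FUBP3 11.7 FPKM and ASS1, an enzyme of arginine synthesis, 6.71 FPKM on the 5′ side. On the 3′ side AIF1L had 14.6 FPKM, a locus with no name 1.01 FPKM and the nuclear pore gene NUP214 66.6 FPKM, the only one of the 7 above ABL1.

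BCR has partial copies elsewhere in the genome, whose fragments can be shared with it. All 9 pseudogenes BCRP1 to BCRP9 were found, of which 6 were listed at 0 in all libraries. BCRP2 ran from 0.90 to 1.45 FPKM and BCRP3 from 0.36 to 0.74 FPKM, and BCRP8, which lies inside the BCR locus, was above 0 only in the knockdown nuclear library, at 1.62 FPKM. They were low beside BCR, and the rule by which shared fragments were counted was not given in the sources used here.

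By Euclidean distance between centred log2 values, the loci whose profile over the 6 libraries was most like each partner were sought among 7998 protein-coding loci averaging at least 5 FPKM. For BCR they were SCARB1, a lipoprotein receptor, at a distance of 0.0760, KIAA0100 at 0.101 and PITPNM2 at 0.108, against a median distance of 1.06. For ABL1 they were DNAJB12, a chaperone partner, at 0.0771, UTP3 at 0.0854 and AMOTL1 at 0.103, against a median of 0.941. ABL1 was only rank 556 in likeness to BCR, at 0.393, and BCR was rank 782 in likeness to ABL1. The distances share the same 6 libraries and carry no test.

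Of the adaptors, CRKL and GAB2 differed little between conditions, while GRB2 was higher after knockdown in all 3 preparations. CRKL (chromosome 22, 21271713 to 21308037), an SH2 and SH3 adaptor, stood at 48.6 FPKM in the control and 49.3 after knockdown in whole cells, at 59.5 and 60.2 in the nucleus, and at 106 in both cytosolic libraries. Its log2 ratios were 0.02, 0.02 and -0.01, each within the range of counting error. No ratio of CRKL passed 0.02 in size. Its log2 nuclear-to-cytosolic ratio was -0.84 in the control and -0.81 after knockdown.

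GRB2 (chromosome 17, 73314156 to 73401790), which couples tyrosine kinases to the RAS activator SOS, stood at 38.0 FPKM in the control and 49.2 after knockdown in whole cells, at 50.04 and 56.2 in the nucleus, and at 75.5 and 117 in the cytosol. The knockdown library was the higher in each preparation, and the gap was widest in the cytosol. The log2 ratios were 0.37 (counting SE 0.05), 0.17 (SE 0.04) and 0.63 (SE 0.05), all outside the range of counting error and above 0 under every scaling tried. The cytosolic ratio exceeded that of 97.3% of protein-coding loci. The nuclear-to-cytosolic ratio was -0.59 in the control and -1.06 after knockdown on the log2 scale, a shift of -0.46 (SE 0.06) toward the cytosol.

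GAB2 (chromosome 11, 77926342 to 78129394), a docking protein that GRB2 carries to the kinase, stood at 24.5 and 24.6 FPKM in whole cells, at 25.4 and 29.04 in the nucleus, and at 49.6 and 48.0 in the cytosol. Only the nuclear pair differed beyond counting error, at a log2 ratio of 0.19 (SE 0.06). The shift was 0.24 (SE 0.08), toward the nucleus, opposite in direction to that of its partner GRB2. The difference between these adaptors was not tested, since each value rests on 1 library.

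**Figure D2:**
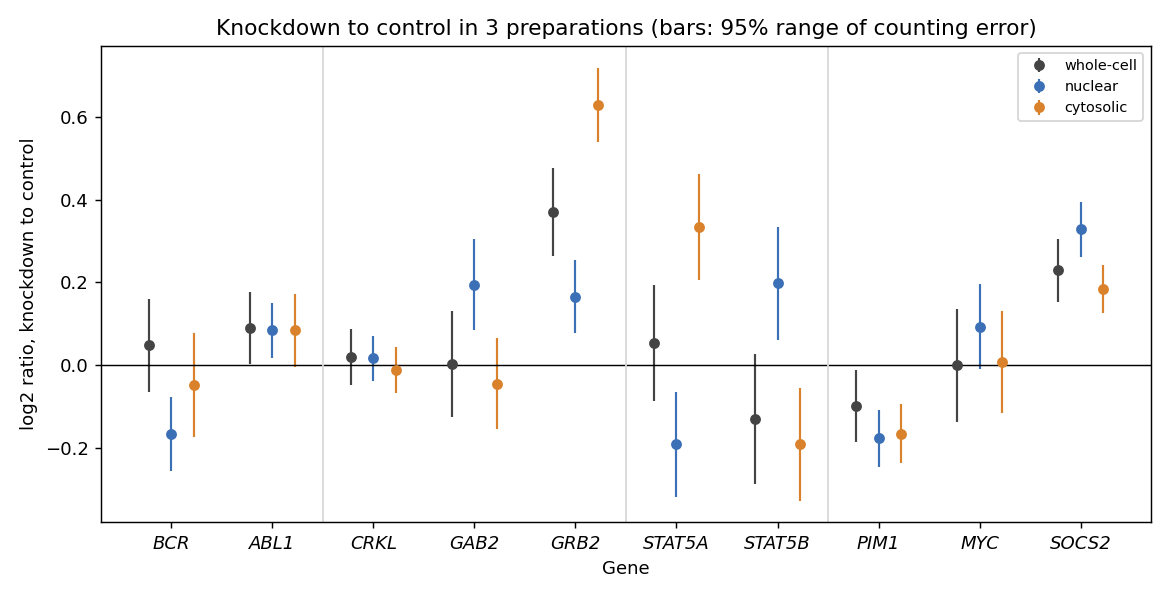
Log2 ratio of knockdown to control FPKM for the 10 genes in whole-cell, nuclear and cytosolic RNA, with bars for the 95% range of counting error. GRB2 in the cytosol, at 0.63, is the point farthest from 0, and no point reaches 2-fold, a log2 value of 1.

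STAT5A and STAT5B, the paired transcription factors that the kinase activates, showed opposite values in nucleus and cytosol. STAT5A (chromosome 17, 40439564 to 40463961) measured 26.2 FPKM (control) and 27.2 (knockdown) in whole cells, 27.1 and 23.7 in nuclei, and 42.0 and 53.0 in the cytosol. STAT5B (chromosome 17, 40351185 to 40428725), its neighbour, stood at 25.7 and 23.5 FPKM in whole cells, at 25.0 and 28.7 in the nucleus, and at 51.4 and 45.0 in the cytosol. In the cytosol STAT5A was the lower of the pair in the control and the higher after knockdown, both beyond counting error. In the nucleus the pair did not differ beyond counting error in the control, and STAT5A was the lower after knockdown.

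The log2 ratios of STAT5A were -0.19 (counting SE 0.06) in nuclear and 0.33 (SE 0.07) in cytosolic RNA. Those of STAT5B were 0.20 (SE 0.07) and -0.19 (SE 0.07), so all 4 values were beyond counting error. Nuclear and cytosolic ratios on opposite sides of 0, both beyond counting error, occurred in 4.47% of all loci with an estimate. That share is not matched for level. The shift was -0.53 (SE 0.09) for STAT5A, a value lower than that of all but 7.04% of protein-coding loci, and 0.39 (SE 0.10) for STAT5B, above 89.8% of them. In whole-cell RNA the ratios were 0.05 (SE 0.07) and -0.13 (SE 0.08), both within counting error, and that of STAT5A changed sign under the 3 other scalings.

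The sum of the pair did not show these differences. It stood at 51.9 and 50.6 FPKM in whole cells, at 52.1 and 52.4 in the nucleus, and at 93.4 and 98.0 in the cytosol. The shift of the sum was -0.06 (SE 0.07), within counting error. STAT5A made up 51.9% of the sum in the control nucleus and 45.2% in the knockdown nucleus, against 45.0% and 54.1% in the cytosol.

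The sequences of the pair are shown because short fragments may come from either gene. Over 2348 aligned bases of the GENCODE release 29 coding sequences, 88.9% were identical, and the longest stretch without a difference was 429 bases. Of all 100-base windows of the STAT5A coding sequence, 16.2% were also in STAT5B. The stretch of the STAT5A coding sequence from base 544 to base 743, which runs into it, differs from STAT5B only at the 2 bases in capitals.
STAT5A, bases 544 to 743: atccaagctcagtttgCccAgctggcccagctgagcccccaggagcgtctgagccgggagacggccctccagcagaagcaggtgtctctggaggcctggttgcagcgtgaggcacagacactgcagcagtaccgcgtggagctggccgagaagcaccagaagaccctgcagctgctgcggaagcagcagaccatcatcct
The 90 bases from coding base 77 to 166 are the most different such window, with 27 differences, again in capitals.
STAT5A, bases 77 to 166: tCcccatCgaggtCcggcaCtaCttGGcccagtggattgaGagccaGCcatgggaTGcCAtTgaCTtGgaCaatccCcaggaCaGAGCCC
STAT5B, bases 77 to 166: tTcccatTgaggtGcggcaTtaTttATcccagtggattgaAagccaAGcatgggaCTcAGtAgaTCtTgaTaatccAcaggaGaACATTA
Fragments from the first stretch could be split between the pair by the counting, whereas those from the second can be told apart. The values of each gene alone are therefore less certain than their sum, and the part of shared fragments in the opposite values was not tested.

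**Figure D3:**
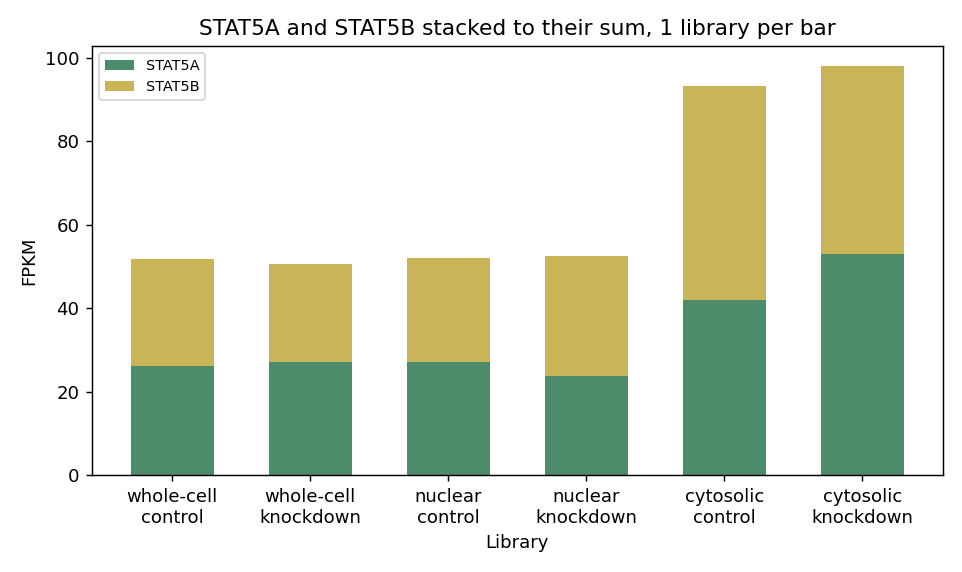
FPKM of STAT5A (green) and STAT5B (yellow) stacked to their sum, with 1 bar for each of the 6 libraries. From control to knockdown the green portion goes from 51.9% to 45.2% of the nuclear bar and from 45.0% to 54.1% of the cytosolic bar, while the heights are 52.1 and 52.4 in the nucleus and 93.4 and 98.0 in the cytosol.

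Of the STAT5-linked genes, PIM1 was lower after knockdown, SOCS2 was higher and MYC was near its control. PIM1 (chromosome 6, 37137978 to 37143202), a serine and threonine kinase that supports survival, measured 91.7 FPKM (control) and 85.6 (knockdown) in whole cells, 117 and 103 in nuclei, and 203 and 181 in the cytosol. It was lower after knockdown in each preparation, with log2 ratios of -0.10 (counting SE 0.04), -0.18 (SE 0.04) and -0.17 (SE 0.04). Its localization shift was -0.01.

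SOCS2 (chromosome 12, 93963589 to 93977263), a feedback inhibitor of cytokine signalling, stood at 86.1 and 101 FPKM in whole cells, at 88.0 and 111 in the nucleus, and at 221 and 252 in the cytosol. It was higher after knockdown in each preparation, with log2 ratios of 0.23 (SE 0.04), 0.33 (SE 0.03) and 0.18 (SE 0.03), all outside counting error and above 0 under every scaling. Its nuclear-to-cytosolic ratio, -1.33 in the control and -1.19 after knockdown, was the lowest of the 10.

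MYC (chromosome 8, 128747679 to 128753674), a transcription factor for growth genes, stood at 34.8 FPKM in both whole-cell libraries, at 47.4 and 50.5 in the nucleus, and at 62.4 and 62.8 in the cytosol. Its log2 ratios were 0.00, 0.09 and 0.01, all within the range of counting error (SE 0.07, 0.05 and 0.06). Its shift was 0.08 (SE 0.08).

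Across the 10, none differed by 2-fold or more between knockdown and control. That held in whole-cell RNA, where 2.66% of all loci did in either direction, in nuclear RNA, where 2.55% did, in cytosolic RNA, where 5.25% did, and for the localization shift, where 7.1% did. The medians of the 10 log2 ratios were 0.03, 0.09 and 0.00 in the 3 preparations, against 0.06, 0.03 and 0.03 over all loci. The median shift was 0.01 against 0.00. Beyond counting error lay 4 of the 10 in whole-cell RNA (32% of all loci with an estimate), 8 in nuclear RNA (41.4%), 5 in cytosolic RNA (33.4%) and 5 for the shift (28.9%). None of these shares over all loci is matched for level. Each of the 10 averaged at least 33.2 FPKM, while the shares take in loci from 1 FPKM up. With more fragments a smaller difference passes the counting range, so the counts are not read as an excess.

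Knockdown was above control in all 3 preparations for ABL1, GRB2 and SOCS2, as for 24.6% of all loci, and below for PIM1, as for 13.2%. With libraries scaled to the median protein-coding locus these shares were 17.6% above and 19.0% below, and BCR and CRKL joined PIM1. ABL1, GRB2 and SOCS2 were still above.

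In the control, 2 of the 10 were at least 2-fold lower in nuclear than in cytosolic RNA, SOCS2 and STAT5B, where 29.1% of all loci were. After knockdown they were 3, GRB2, STAT5A and SOCS2, where 28.4% of all loci were. The median log2 nuclear-to-cytosolic ratio of the 10 was -0.71 before and -0.76 after knockdown, while that of protein-coding loci was -0.61 both times. These levels depend on how the libraries are scaled: with each scaled to its total without mitochondrial and small RNA loci the median of the 10 was 0.53 in the control, and that of protein-coding loci 0.62. With quantile normalization the median of the 10 was 0.18 and that of protein-coding loci -0.15, so the side of the protein-coding median on which the 10 together lay depended on the scaling.

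**Figure D4:**
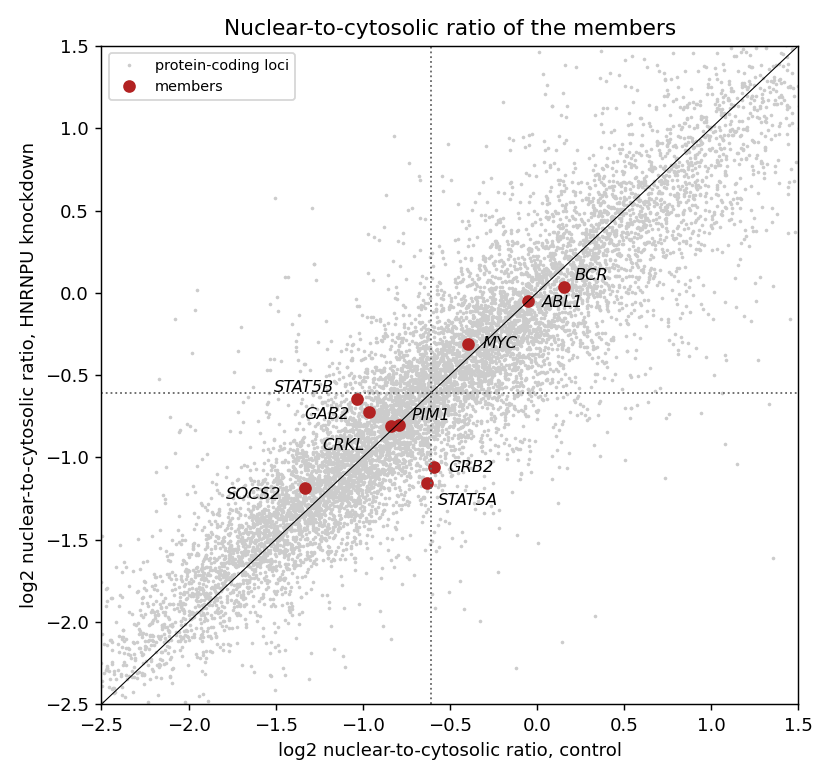
Log2 nuclear-to-cytosolic ratio after knockdown against that in the control, for the 10 genes (red) and the protein-coding loci (grey, 9845 of 10304 within the axes), with the protein-coding medians as dotted lines and equality as a solid line. GRB2 and STAT5A lie below the line of equality, by 0.46 and 0.53, and STAT5B and GAB2 lie above it, by 0.39 and 0.24.

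In control whole-cell RNA, the order of levels per length was PIM1, SOCS2, CRKL, BCR, GRB2, MYC, ABL1, STAT5A, STAT5B and GAB2. The neighbours STAT5A and STAT5B, and STAT5B and GAB2, did not differ beyond counting error. In knockdown whole-cell RNA SOCS2 came before PIM1 and GRB2 before BCR, and CRKL and GRB2, MYC and ABL1, and GAB2 and STAT5B did not differ beyond counting error. In control nuclear RNA the order began with PIM1 and in the other 3 libraries of nucleus and cytosol with SOCS2.

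The wider pathway was read through 9 lists of 109 genes, of which 101 reached a mean of 1 FPKM. Some of their loci also carry other gene names, so their fragments cannot be given to the listed gene alone. Among those named below, these are YES1 (with RP11-769O8.3) and MXD4 (with MIR4800). The lists were chosen with earlier results of these data known, so their counts are descriptive and carry no test. The cytokine OSM was listed at 0, and the kinases FES and JAK3, the adaptor DOK2 and the ERK phosphatases DUSP4 and DUSP6 were among those below the minimum. None of the 101 differed by 2-fold or more in whole-cell RNA, 1 was higher in nuclear RNA (the lipid phosphatase INPP5D, 0.61 and 1.39 FPKM), and 1 was lower in cytosolic RNA (the cyclin CCND1, 16.4 and 7.89 FPKM). INPP5D had only about 16 estimated fragments in the control nuclear library, and its nuclear log2 ratio was 1.07 (counting SE 0.40). Its whole-cell ratio lay on the other side, at -0.39 (SE 0.35). For the shift 3 of the 101 (2.97%) passed 2-fold, where 7.1% of all loci did. None of these shares of all loci is matched for level or gene type, so they are not compared with the counts of the 101.

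Among upstream kinases and partners, 0 of 6 ABL and SRC family kinases passed 2-fold in any ratio of knockdown to control. By preparation, 2.55% to 5.25% of all loci did. The median shift of the 6 was 0.32. FER had log2 ratios of 0.41 in whole-cell and 0.40 in nuclear RNA and -0.15 in cytosolic RNA, and SRC a shift of 0.54. YES1, with 12.1 and 13.4 FPKM in whole-cell RNA, had a shift of -0.01. Of 9 relatives and partners of ABL and BCR, 1 passed 2-fold for the shift, where 7.1% of all loci did. It was ABR, the close relative of BCR, at 1.27. Its levels were low, with 1.11 and 1.51 FPKM in nuclear and 2.22 and 1.17 FPKM in cytosolic RNA. ABI2, an ABL interactor of the actin machinery, had log2 ratios of 0.36, 0.43 and 0.24, and WASF2 of the same machinery 0.25, 0.34 and 0.05. In all 3 preparations 5 of the 9 (55.6%) were above control and 0 below, where 24.6% and 13.2% of all loci were. With libraries scaled to the median protein-coding locus 3 were above and 1 below, where 17.6% and 19.0% of all loci were.

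Of 15 adaptors and RAS activators, 3 were above control in all 3 preparations and 3 below, where 24.6% and 13.2% of all loci were. CBLB, a ubiquitin ligase, had 1.06 and 2.04 FPKM in whole cells and NCK2, an adaptor, 7.03 and 4.73 FPKM. GAB1, the relative of GAB2, had 4.67 and 3.01 FPKM in nuclear RNA and a shift of -0.40 (SE 0.31), within counting error.

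Of 12 genes of the RAS-RAF-MEK-ERK cascade, 8 (66.7%) were above control in all 3 preparations, where 24.6% of all loci were, and 2 (16.7%) below, where 13.2% were. With libraries scaled to the median protein-coding locus the count above was 7, where 17.6% of all loci were above. The medians of the list were 0.19, 0.21 and 0.11 on the log2 scale, against 0.06, 0.03 and 0.03 over all loci. NRAS stood at 8.48 and 10.99 FPKM in whole cells, at 6.12 and 8.33 in the nucleus and at 32.2 and 34.9 in the cytosol, and BRAF had log2 ratios of 0.39, 0.26 and 0.12. ARAF, a relative of BRAF, had a shift of 0.42. The list stood low in the nucleus, with a median log2 nuclear-to-cytosolic ratio of -1.61 in the control, against -0.61 for protein-coding loci, both on the deposited scale. Of 9 genes induced by or restraining ERK signalling, 4 (44.4%) were above control in all 3 preparations and 1 (11.1%) below, where 24.6% and 13.2% of all loci were. SPRY4, a feedback inhibitor, had 8.23 and 5.19 FPKM in whole cells, and SPRY1 1.16 and 1.54 FPKM.

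The PI3K-AKT-mTOR-FOXO list, 18 genes, held the widest spread of shifts, from -1.19 to 1.11. PIK3CA, the catalytic subunit, had 6.43 and 9.25 FPKM in nuclear and 18.5 and 12.3 FPKM in cytosolic RNA, a shift of 1.11. TSC1, which restrains mTOR, had 7.22 and 5.31 FPKM in nuclear and 2.97 and 5.10 FPKM in cytosolic RNA, a shift of -1.19. PIK3R1, the regulatory subunit, had 5.39 and 4.22 FPKM in whole cells and a shift of 0.50.

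Of 11 JAK-STAT genes apart from STAT5, none passed 2-fold in a ratio of knockdown to control or in the shift. By preparation, 2.55% to 5.25% of all loci did in a ratio, and 7.1% in the shift. STAT3 stood at 35.3 and 28.3 FPKM in whole cells, at 33.6 and 30.5 in the nucleus and at 75.5 and 59.1 in the cytosol. The kinase TYK2 had a shift of 0.69, with 42.2 and 26.6 FPKM in cytosolic RNA, and STAT6 a shift of -0.51. PTPN2, a phosphatase that acts on JAK and STAT proteins, had 12.0 and 14.3 FPKM in whole-cell RNA. Of 8 partners and antagonists of MYC, 1 (12.5%) was below control in all 3 preparations, where 13.2% of all loci were, and 0 were above, where 24.6% were. With libraries scaled to the median protein-coding locus 3 (37.5%) were below, where 19.0% of all loci were. MAX, the partner of MYC, had log2 ratios of -0.16, 0.03 and -0.35, MXD4 of 0.19, -0.47 and -0.24, and MNT of 0.16, -0.19 and -0.53.

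The list with the largest share on 1 side of control in all 3 preparations was that of known STAT5 target genes other than PIM1, SOCS2 and MYC. The RAS-RAF-MEK-ERK list was close to it, with 66.7% above. Of the 13 that reached a mean of 1 FPKM, 9 (69.2%) were below control in all 3 preparations, where 13.2% of all loci were, and 1 was above, BCL2L1. The 9 were CISH, SOCS1, SOCS3, PIM2, PIM3, CCND1, CCND3, ID1 and CDKN1A, and the counts of 9 and 1 were the same under each pseudocount and scaling tried. The medians of the list were -0.13, -0.31 and -0.17, against 0.06, 0.03 and 0.03 over all loci. PIM1 lay on the side of the 9 and SOCS2 on the other. This list was chosen with earlier results known and is singled out here after its values were seen. It is not stated that the 3 preparations are separate cultures, so the same sign in all 3 is not replication. The share of 69.2% is therefore not a test against that of all loci.

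PIM2, a relative of PIM1, measured 27.7 FPKM (control) and 21.0 (knockdown) in whole cells, 34.6 and 22.7 in nuclei, and 55.8 and 39.2 in the cytosol. The feedback inhibitor SOCS1 had 16.6 and 13.8 FPKM, 20.5 and 13.3 FPKM, and 31.9 and 21.9 FPKM in the same order. CISH, another feedback inhibitor and the classical STAT5 target, had 20.8 and 19.1 FPKM, 26.9 and 23.2 FPKM, and 50.2 and 44.7 FPKM. The control library was the higher in each of these 9 pairs, and for PIM2, SOCS1 and CISH all 3 ratios were outside the range of counting error. In each of the other 6, the ratio of 1 preparation was within it.

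In whole-cell RNA the widest ratio of the list was that of CDKN1A, which codes for the cell cycle inhibitor p21, at 3.78 and 1.94 FPKM in whole cells, 5.21 and 2.73 in the nucleus, and 8.21 and 6.61 in the cytosol. ID1, an inhibitor of helix-loop-helix factors, had 17.7 and 12.7 FPKM, 30.5 and 18.5 FPKM, and 24.8 and 23.9 FPKM. BCL2L1, an inhibitor of cell death, had log2 ratios of 0.09, 0.10 and 0.10. CDKN1A and ID1 have other regulators than STAT5, and the list's name says only where a gene is known as a target. It does not say whether STAT5 raises or lowers that gene, so the counts and medians may pool genes of both kinds.

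**Figure D5:**
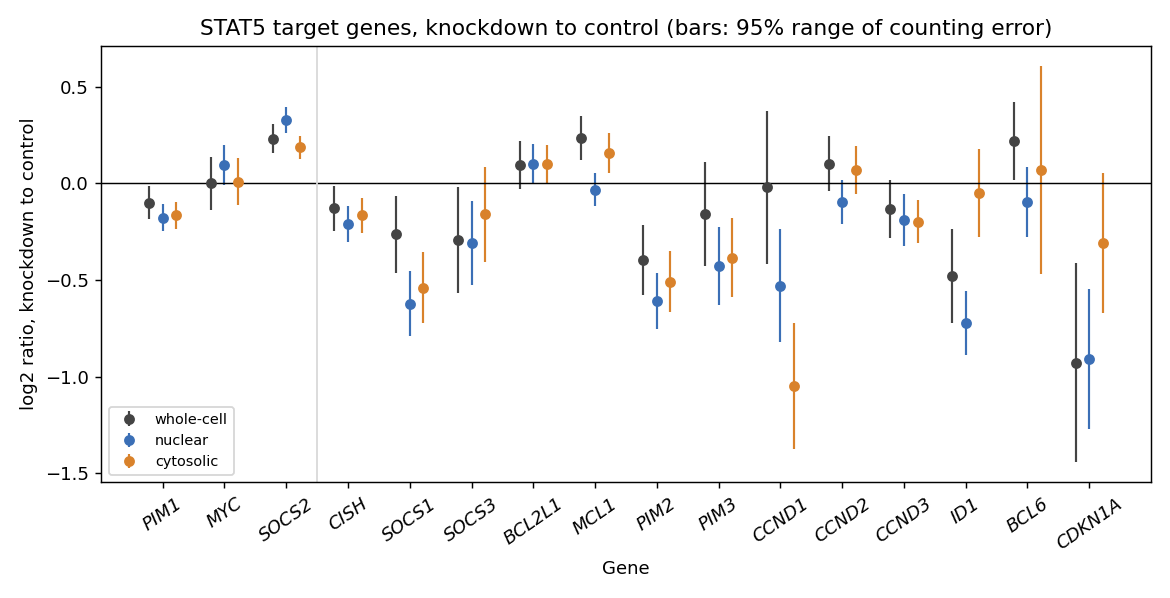
Log2 ratio of knockdown to control FPKM in whole-cell, nuclear and cytosolic RNA for PIM1, SOCS2 and MYC and, beyond the dividing line, the 13 other STAT5 target genes, with points for the ratios and bars for the 95% range of counting error. In 9 of the 13 all 3 points lie below 0, and CCND1 in the cytosol, at -1.05, and CDKN1A in whole-cell RNA, at -0.93, reach lowest.

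The promoters of CISH and BCL6 are shown because, of the windows of the 10 genes and the listed targets, only theirs hold the letters that STAT5 is known to bind. The letters are TTCNNNGAA, a palindrome searched here on both strands in the same kind of RefSeq window. The CISH window is chr3:50611725-50612024 and the BCL6 window chr3:187745419-187745718, both on the minus strand of GRCh38.p14, with matches in capitals.
CISH: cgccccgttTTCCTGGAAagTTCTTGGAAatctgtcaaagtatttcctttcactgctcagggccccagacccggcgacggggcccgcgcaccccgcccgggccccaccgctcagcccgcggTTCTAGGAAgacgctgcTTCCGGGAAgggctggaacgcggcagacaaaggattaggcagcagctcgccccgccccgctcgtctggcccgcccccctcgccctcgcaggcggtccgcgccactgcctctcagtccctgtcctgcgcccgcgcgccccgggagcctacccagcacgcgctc
BCL6: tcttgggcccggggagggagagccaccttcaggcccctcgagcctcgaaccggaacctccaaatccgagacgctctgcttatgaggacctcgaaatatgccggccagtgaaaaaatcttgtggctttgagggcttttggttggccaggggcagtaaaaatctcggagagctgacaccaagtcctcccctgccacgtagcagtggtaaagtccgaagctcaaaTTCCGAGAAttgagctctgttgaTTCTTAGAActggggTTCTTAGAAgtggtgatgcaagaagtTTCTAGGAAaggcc
Each holds 4 matches, where 7.66% of the 35116 windows hold any and 7 windows (0.0199%) hold 4 or more. Of the 14 listed targets, 10 had a window and 2 of these held a match, CISH and BCL6. Of the 10 genes described first, 8 had a window and 0 held a match, and MYC and SOCS2 had none in the table. A window of this size leaves out enhancers and introns, so no match says only that these letters are not in it. CISH and BCL6 had unlike values: the log2 ratios were -0.13, -0.21 and -0.17 for CISH and 0.22, -0.10 and 0.07 for BCL6. The matches do not give the direction in which STAT5 acts on either gene, so like values need not follow from them. BCL6 also stood highest of the list in the nucleus, with a log2 nuclear-to-cytosolic ratio of 2.28 in the control.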

How the data were processed

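RNA of K562 cells was measured in 6 libraries, 1 for each of 2 conditions and 3 preparations. TRIzol extraction, removal of ribosomal RNA and a strand-specific library kit were used, per the labels' protocols. The authors deposited 1 table of FPKM values over 62828 loci, with hg19 coordinates. No header names the unit, which was inferred from its values and from Cuffdiff 2.2.1, which the submitters' processing notes name beside TopHat2 2.0.13. Of the counting, the annotation, the scaling and the use of strand were not given in the sources used here. Nor was it stated whether separate cultures were used for the preparations, so a test over the 3 preparations was not run.

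Loci that averaged 1 FPKM or more were kept, ratios were differences of log2(FPKM + 0.1), and 2-fold (a log2 value of at least 1) was the size named. Fragments were estimated from the FPKM of 1 fragment per kilobase, read from steps of low values at single-exon loci, and from mean GENCODE release 29 transcript lengths less 220 bases. The members had about 556 to 8136 fragments a library, and counting SEs of 0.03 to 0.08 for ratios and up to 0.10 for shifts. In simulated libraries of 8245 loci, 95.3% of the 95% counting intervals of the shift held the true value. The simulated counts followed the same counting model and lengths as the SE. The figure therefore checks the calculation only, and does not show that the SEs hold for the real libraries. Gene types came from GENCODE by symbol. STAT5 coding sequences came from GENCODE release 29 and promoter windows from RefSeq on GRCh38.p14; their coordinates were not joined to those of the table.

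The 10 genes and the lists were chosen with earlier results of these data known. Named beyond the 10 were, in each list, the 2 genes with the largest whole-cell ratio and the 2 with the largest shift. A few genes that these rules pick are not reported here. Named too were the 3 nearest kept neighbours on each side of BCR and ABL1, and the 3 loci most like each. INPP5D, CHCHD10, SMARCB1, FBXW4P1 and the STAT5 targets apart from CDKN1A and ID1 were named after their values were seen. Alternatives were 2 pseudocounts, 3 scalings and 2 filters, whose effects are given below. Values were computed in Python 3.11.15 (pandas 2.3.3, numpy 2.4.6, scipy 1.17.1) and drawn with matplotlib 3.10.9.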

Additional observations from a re-analysis of the deposited data

Results flagged for a closer look

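Of 37 genes examined (the 10 and those named from the lists), 5 had nuclear and cytosolic ratios of knockdown to control on opposite sides of 0, both beyond the 95% range of counting error, where 4.47% of all loci did. Many of the 37 were named for the largest shift in their list, which favours this pattern, so the count is not read against that share. Their localization shifts were -0.53 for STAT5A, 0.39 for STAT5B, -1.19 for TSC1, 1.11 for PIK3CA and -0.51 for STAT6. Each rests on 1 library a group, so the difference between nucleus and cytosol was not tested. STAT5A and STAT5B share long stretches of sequence, and the shift of their sum was -0.06.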

How the results depend on the processing

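No paired analysis was possible because the labels carry no replicate numbers. A fit of condition with the preparation as a block over the 6 libraries was not run, since it is not stated that the preparations are separate cultures. With 1 library a group, none could be left out. All 60 values of the 10 genes stayed close to those reported with a pseudocount of 1 and with one of 0.01. No scaling brought any of the 10 to 2-fold in a ratio of knockdown to control or in the localization shift. The nuclear-to-cytosolic ratios moved with the scaling. With libraries scaled to the protein-coding median, the median of the 10 was -0.18 in the control and -0.24 after knockdown, with 0 genes at least 2-fold lower in each. With libraries scaled to totals without mitochondrial and small RNA loci, the medians were 0.53 and 0.44, with 0 genes at least 2-fold lower and 2 at least 2-fold higher in each condition. Under that scaling the nuclear-to-cytosolic ratio turned to 0.21 for STAT5B in the control, and to 0.14 for GRB2, 0.041 for STAT5A and 0.016 for SOCS2 after knockdown. With quantile normalization the medians were 0.18 and 0.15, with 0 genes at least 2-fold lower in each and 1 at least 2-fold higher in the control. The protein-coding median under quantile normalization was -0.15 in the control, so the 10 moved further than that median, and the cause was not tested.

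The number of the 10 beyond counting error was within 1 of that reported with the longest transcript as the length and under each scaling, alternatives chosen after seeing the data. Counts over all loci moved more across pseudocounts, scalings and filters: loci at least 2-fold higher after knockdown, 175 in whole-cell RNA, ran from 28 to 1896, and those lower, 166, from 25 to 2270. In nuclear RNA the 134 higher ran from 22 to 1805 and the 193 lower from 37 to 1978. In cytosolic RNA the 336 higher ran from 30 to 1792 and the 338 lower from 39 to 2022. For the shift the 421 higher ran from 48 to 3271 and the 491 lower from 69 to 3215. Loci below control in all 3 preparations, 1699 against 3161 above, became 2439 against 2262 with the protein-coding median scaling. Depth limits ratios of low genes such as ABR and CBLB most.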

Other observations

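K562 is also known to carry a NUP214-XKR3 fusion, which joins a neighbour of ABL1 to a gene of chromosome 22. These genes were picked after their values were seen. NUP214 (chromosome 9, 134000947 to 134110057 on hg19) measured 68.8 FPKM (control) and 68.6 (knockdown) in whole cells, 70.4 and 79.3 in nuclei, and 52.3 and 60.1 in the cytosol. XKR3 (chromosome 22, 17264301 to 17302589) ran from 3.22 to 5.49 FPKM over the 6 libraries, the highest in knockdown whole-cell RNA. Here too a value for a locus does not separate fused from intact transcripts.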
